A study of Homo sapiens with 8 samples.

Results

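The 43 genes described here encode the proteins that start, carry out and guard DNA synthesis in S phase. They were taken by name and role from 38637 genes with counts in 8 RNA-seq libraries of SW1990 cells, a human pancreatic cancer line. By role they fall into 10 genes of origin licensing, 6 of helicase activation, 13 of the replication fork, 4 of nucleotide supply, 6 regulators of S phase entry and 4 genes of the S phase checkpoint. The groups were Vector, EBF2-OE, Vehicle and GSK-LSD1, with 2 libraries each. EBF2-OE cells overexpressed EBF2, a transcription factor, and Vector was their control. GSK-LSD1 cells received GSK-LSD1, an inhibitor of the histone demethylase KDM1A (LSD1), with a labelled dose of 2000 µM, and Vehicle, called mock in the sample titles, was their control. That dose is far above the range in which this inhibitor is commonly used, so its unit is uncertain. All 8 libraries were labelled SW1990, and the study calls the sequenced cells SW1990-luc, a luciferase-labelled derivative. The identity of the line rests on these labels and was not tested. Exposure time and the promoter driving EBF2 are not given in the sources used here. The study's methods describe transfection of plasmids into SW1990 cells, without saying how EBF2 was introduced into the sequenced cells. No label says whether the libraries of a group came from separate cultures, so the p-values measure only the spread between libraries, which may be technical.

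Total counts ran from 20453362 to 27054876 per library. EBF2 had 28 and 28 counts in Vector 2 and Vector 3 against 5818 and 90100 in EBF2-OE 2 and EBF2-OE 3, so the label was met in both libraries at very unequal levels. The keratins KRT7, KRT8 and KRT18 had at least 459.0 TPM (transcript abundance per listed gene length) in all 8 libraries, whereas the epithelial markers EPCAM, KRT19 and CDH1 reached no more than 1.57 TPM. The leukocyte marker CD3E was listed at 0 throughout, and PTPRC (leukocyte) and PECAM1 (endothelium) stayed at or below 0.228 TPM. Some other markers of non-epithelial cell types were higher. CD68 (leukocyte) ran from 10.9 to 30.9 TPM and COL1A1 (fibroblast) from 30.5 to 45.2 TPM. CDH5 (endothelium) had 4.34 and 4.20 TPM in Vehicle 1 and 2, and at most 0.567 TPM in the Vector and EBF2-OE libraries. The biological coefficient of variation, the spread between libraries beyond counting error, was 19% for EBF2-OE and Vector and 5.87% for GSK-LSD1 and Vehicle. The same change was therefore easier to detect under GSK-LSD1.

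In G1, the origin recognition complex (ORC), CDC6 and CDT1 load the MCM2 to MCM7 ring onto origins, which licenses them. CDC45 and the GINS complex then join MCM to form the active helicase. PCNA, its loader RFC, the polymerases, FEN1 and LIG1 copy the DNA, while RRM1, RRM2, TYMS and TK1 supply nucleotides. Many of these genes are transcribed at the start of S phase under the E2F factors, which the retinoblastoma protein RB1 holds back until cyclin E with CDK2 is active. In a whole culture, fewer cells in S phase and less RNA per cell cannot be told apart.

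The E2F letters could be read in the promoters of the members. RefSeq windows on GRCh38.p14, from 250 bases before to 50 after each start, were matched for 39 of the 43 genes. MCM4, MCM5, GINS4 and CCNE2 were not matched. The letters searched on both strands were TTTCCCGC, TTTGGCGC, TTTCGCGC and TTTGCCGC. At least 1 of them was found for 23 of 39 members (59.0%) and for 1090 of 27309 genes (3.99%). The letters CCAAT were found for 23 of 39 members (59.0%) against 39.7% of all genes. TTTGAA, known as the CHR and linked to genes of late cell cycle, was found for 1 of 39 members, RRM1, against 18.2% of all genes. A match is a description of letters and not a binding site.

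The windows below belong to licensing genes that fell or did not under GSK-LSD1, to the fork genes LIG1 and PCNA, to CLSPN and to E2F1. Each is 60 bases, read 5′ to 3′ on the gene's strand, with the E2F letters in capitals. In MCM2 and MCM6, matches on opposite strands overlap.
CDT1, chr16:88803728-88803787, plus strand: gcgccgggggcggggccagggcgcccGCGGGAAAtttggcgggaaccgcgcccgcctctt
MCM7, chr7:100101551-100101610, minus strand: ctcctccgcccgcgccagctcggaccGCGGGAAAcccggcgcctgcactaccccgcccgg
MCM3, chr6:52284883-52284942, minus strand: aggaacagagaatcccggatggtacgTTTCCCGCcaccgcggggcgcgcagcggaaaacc
MCM2, chr3:127598371-127598430, plus strand: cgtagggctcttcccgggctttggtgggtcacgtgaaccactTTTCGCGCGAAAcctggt
MCM6, chr2:135876560-135876619, minus strand: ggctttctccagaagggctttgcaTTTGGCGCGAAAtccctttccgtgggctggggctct
LIG1, chr19:48170425-48170484, minus strand: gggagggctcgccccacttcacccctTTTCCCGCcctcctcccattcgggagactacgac
PCNA, chr20:5126648-5126707, minus strand: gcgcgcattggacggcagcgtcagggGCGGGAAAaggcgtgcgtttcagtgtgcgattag
CLSPN, chr1:35769959-35770018, minus strand: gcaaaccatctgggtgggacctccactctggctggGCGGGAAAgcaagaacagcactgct
E2F1, chr20:33686379-33686438, minus strand: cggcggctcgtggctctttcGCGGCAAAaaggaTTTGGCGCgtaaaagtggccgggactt

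Members with these letters were found among those that fell and among those that did not pass. The letters stood in 8 of the 11 matched genes that fell under GSK-LSD1 and in 15 of the 28 matched genes that did not pass. Both the gene with the largest fall, CDT1, and MCM6 and PCNA, which did not pass, held them. No test was made of this split.

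The levels of the members differed widely by TPM, the deposited value per listed gene length. Among licensing genes, MCM7 and MCM2, subunits of the MCM ring, had the highest levels, with means over the 8 libraries of 500.1 and 426 TPM. The other ring subunits followed, with 281 TPM for MCM3, 227 for MCM4, 152 for MCM5 and 115 for MCM6. The listed TPM of subunits that act in 1 ring thus spanned from 115 to 500.1. RRM1, the large subunit of ribonucleotide reductase, had 245 TPM against 72.4 TPM for its small subunit RRM2. POLE2, an accessory subunit of polymerase epsilon, had the lowest level at 9.71 TPM, with its 8 libraries between 7.54 and 10.8. Low counts limit precision, as for POLE2 with 177 to 295 counts per library. GINS1, a GINS subunit at 14.8 TPM, had 446 to 669. RFC3, a clamp loader subunit, was low by TPM at 11.8, but had 1022 to 1506 counts over a listed gene length of 11245 bases. CDT1, the licensing factor, varied most across the 8 libraries, from 74.7 to 256 TPM, a ratio of 3.43 between the highest and lowest library. The next widest were GINS3, a GINS subunit, at 2.14 and E2F1, the activator of S phase genes, at 1.98.

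**Figure D1:**
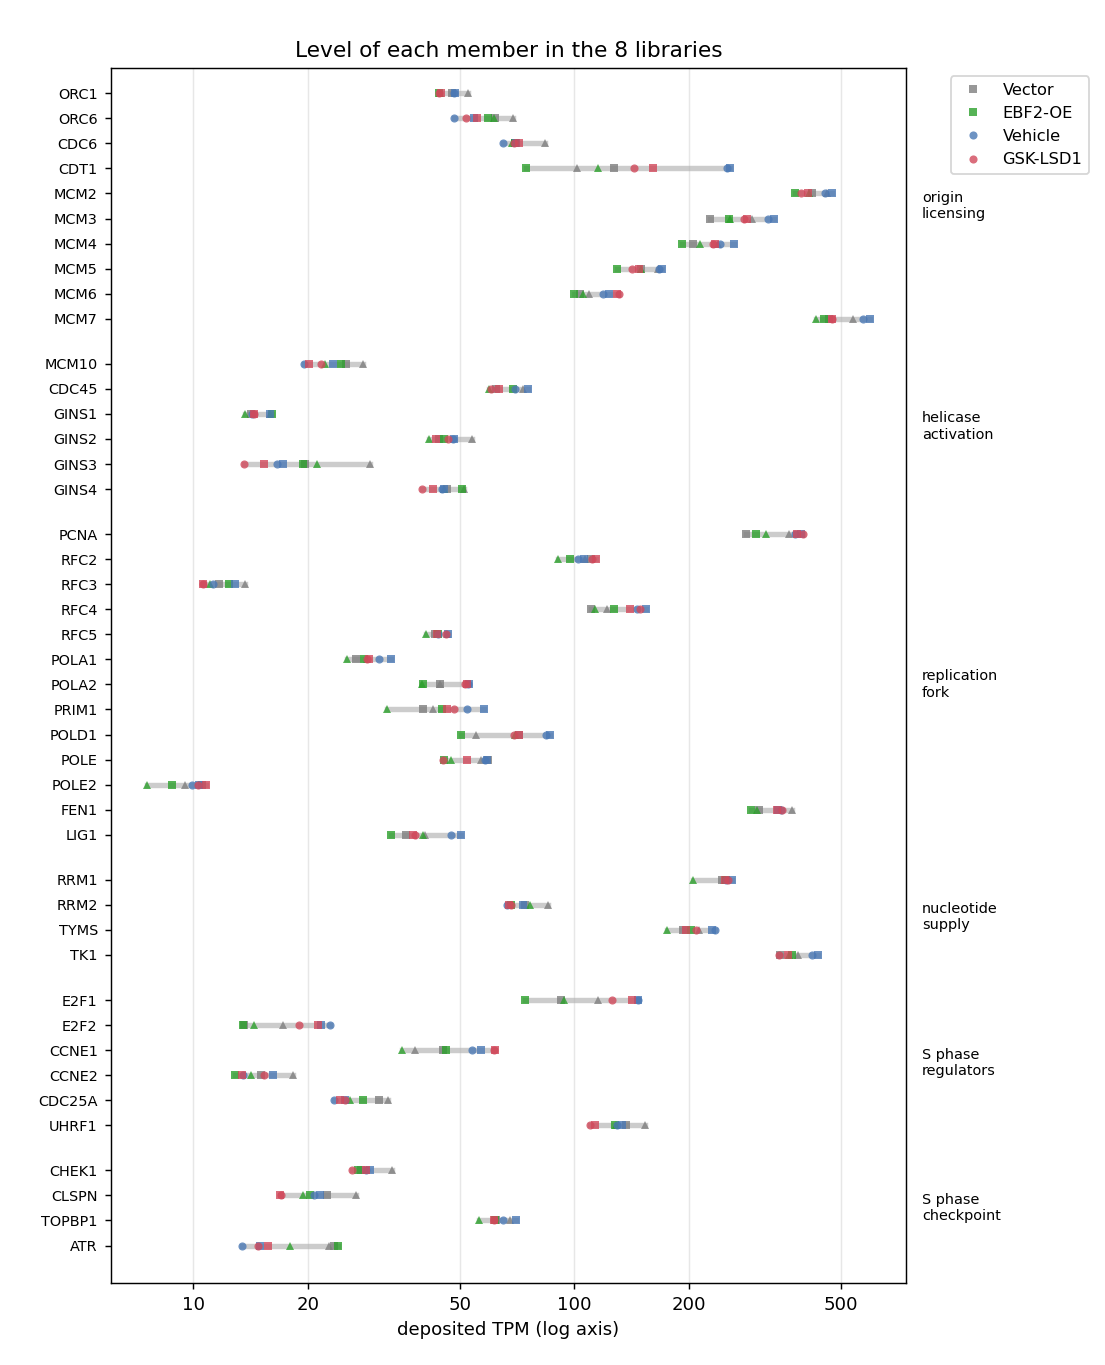
Deposited TPM (log axis) of each of the 43 members, one row per gene grouped by role, with a point for each of the 8 libraries coloured by group. CDT1 spread most across libraries, from 74.7 to 256 TPM, and MCM7 and MCM2 had the highest means of the licensing genes.

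Under GSK-LSD1, part of the replication genes fell, and 1 of them fell strongly. CDT1 was lower by 38.6%, and 11 further members fell by smaller amounts, namely MCM2, MCM3, MCM5, MCM7, CDC45, POLD1, POLE, LIG1, TK1, UHRF1 and CLSPN. These 12 of 43 members (adjusted p under 0.05, edgeR quasi-likelihood test) compare with 8.87% of the 16059 genes tested that passed and were lower. The median standard error (SE) of the log2 fold change was 0.058 for the members and 0.097 for all genes. Smaller changes could therefore pass among the members. No member passed and was higher, against 9.86% of all genes, with 3 members higher at an unadjusted p under 0.05 (MCM6, RFC2 and CCNE1). DESeq2 passed 0 higher after adjustment and had 1 higher at an unadjusted p under 0.05. CDT1 alone also passed the fold limit of 1.5, against 2.04% of all genes lower and 2.53% higher. The median log2 fold change was −0.09 over the members and −0.01 over all genes, and 29 of 43 members lay below 0 against 51% of all genes. Both treated libraries lay below both controls in 22 members against 30.2% of all genes, and above both in 7 against 30%.

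**Figure D2:**
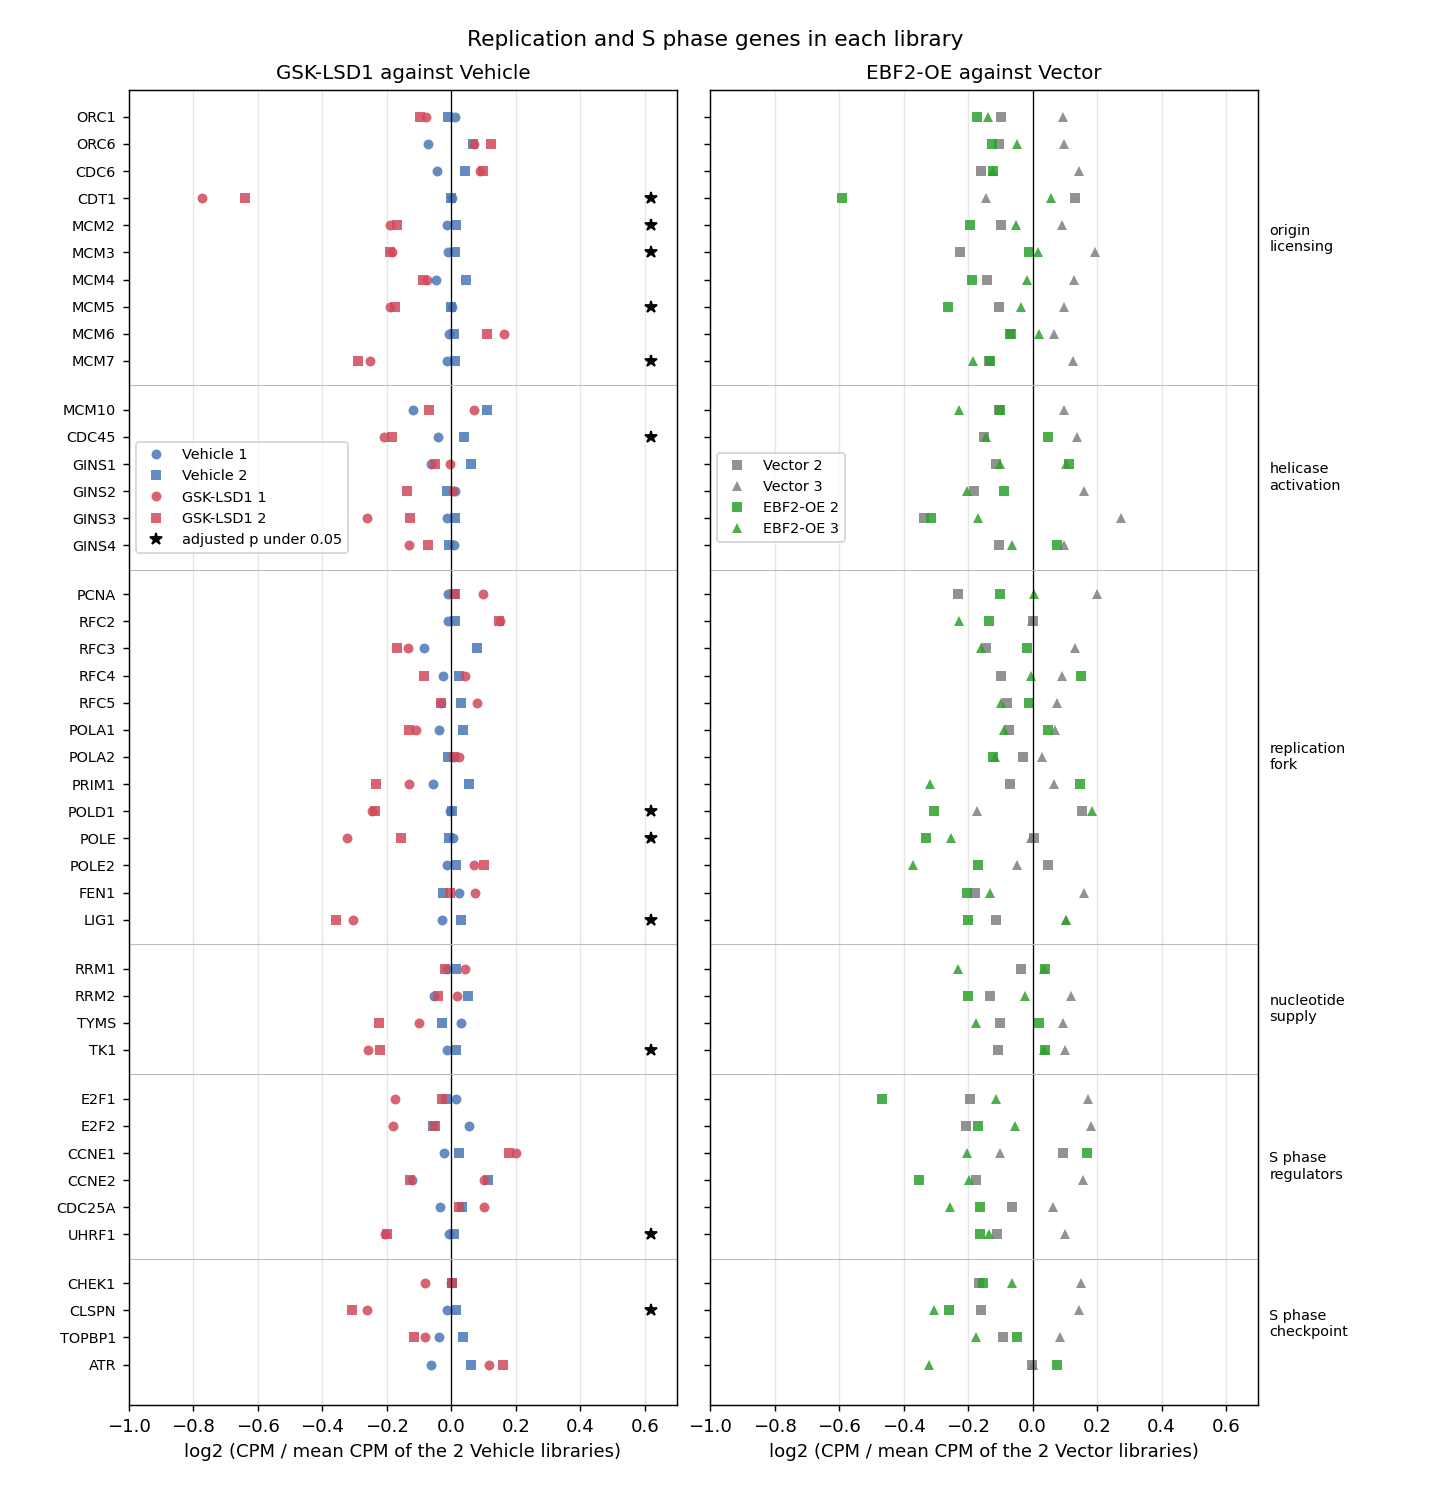
Level of each member in each library as log2 of CPM over the mean of the 2 control libraries, for GSK-LSD1 with Vehicle and for EBF2-OE with Vector, ordered by role. CDT1 stands furthest to the left under GSK-LSD1, and the Vector libraries lie further apart than the Vehicle libraries.

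Licensing was the role with the most falls, at 5 of its 10 genes. CDT1 (chromosome 16, 88803789 to 88809258 on hg38), which brings MCM to origins, had 260.5 and 259.9 CPM (read counts scaled to a common library total with TMM factors) in Vehicle 1 and 2 and 152.4 and 167.0 in GSK-LSD1 1 and 2. The groups were far apart and each pair was close. Its log2 fold change was −0.70 (SE 0.056, adjusted p = 2.68e-05, edgeR). MCM2 had 628 and 641 CPM in Vehicle against 556 and 564 under GSK-LSD1, which gave −0.18 on the log2 scale (SE 0.043, adjusted p = 0.0149). MCM7 fell by 0.27 (adjusted p = 0.00181), MCM3 by 0.19 (adjusted p = 0.0154) and MCM5 by 0.18 (adjusted p = 0.0227), all on the log2 scale. MCM5 did not pass with the replicate number as a block. The ring did not move as 1 block in this test. MCM6 had 174.1 and 176.1 CPM in Vehicle and 195.9 and 189.0 under GSK-LSD1, so both treated libraries were above both controls (log2 fold change 0.14, adjusted p = 0.0798), and MCM4 was at −0.08 (adjusted p = 0.282). CDC6, the partner of CDT1 in loading, had 119.4 and 126.6 CPM against 130.8 and 131.7, or 0.09 on the log2 scale (adjusted p = 0.242). ORC1 and ORC6, subunits of the origin recognition complex, were at −0.09 and 0.10, and neither passed.

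**Figure D3:**
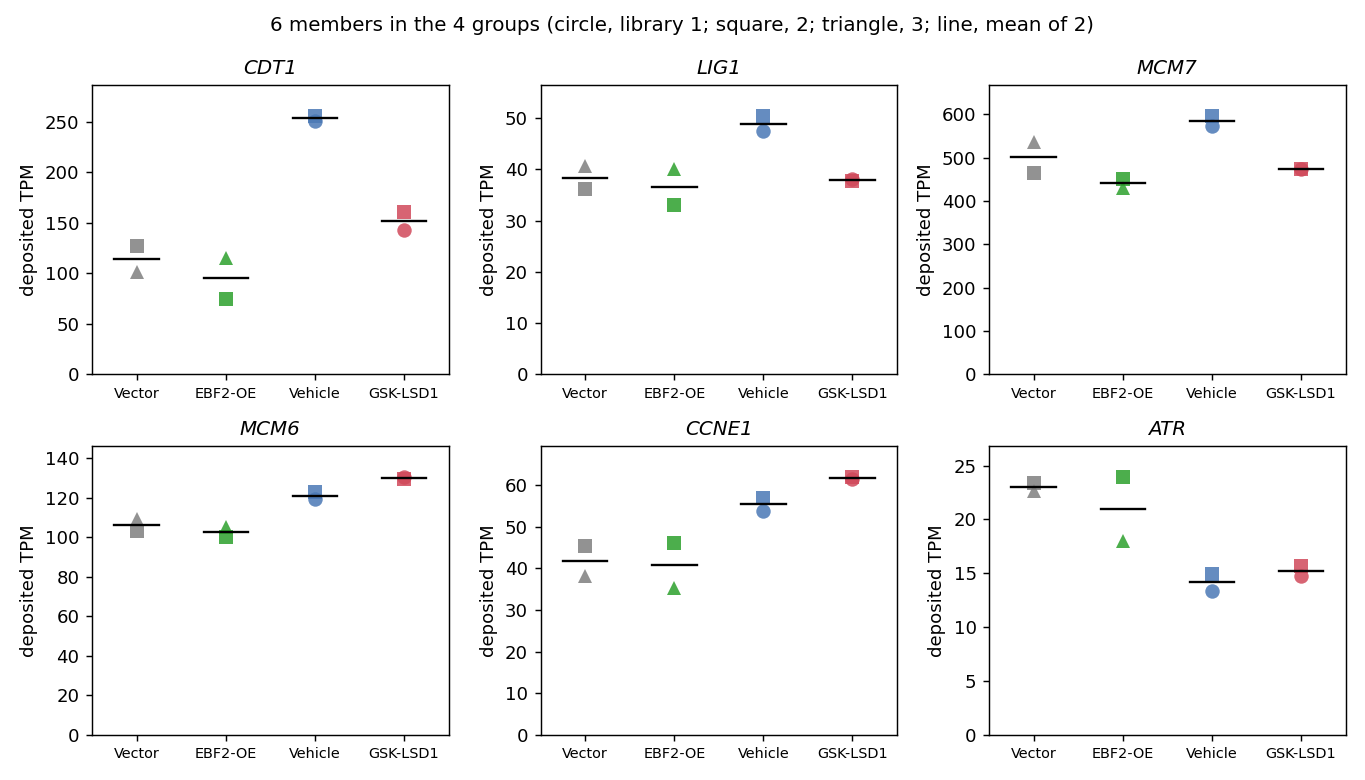
Deposited TPM of CDT1, LIG1, MCM7, MCM6, CCNE1 and ATR in the 4 groups, with a marker per library (circle, replicate 1; square, 2; triangle, 3) and a line at the mean of 2. CDT1 in both GSK-LSD1 libraries lay below both Vehicle libraries and was lower still in the Vector and EBF2-OE libraries, while ATR was higher in the Vector than in the Vehicle libraries.

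Of the 6 helicase activation genes, CDC45 passed. It had 65.7 and 69.5 CPM in Vehicle and 58.5 and 59.5 under GSK-LSD1 (log2 fold change −0.20, SE 0.061, adjusted p = 0.0472), close to the threshold. It did not pass by DESeq2, without the low-count filter or with the replicate number as a block. GINS1 had 22.5 and 24.5 CPM in Vehicle and 23.4 and 22.7 under GSK-LSD1, which overlapped (−0.03, adjusted p = 0.862). The other GINS subunits, GINS2, GINS3 and GINS4, were at −0.06, −0.19 and −0.10, and MCM10, which helps to start unwinding, was at 0.001. None of these 4 passed.

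At the fork, 3 of 13 genes fell: the ligase LIG1 and the catalytic subunits of polymerases epsilon and delta. LIG1, the ligase that seals Okazaki fragments, had 85.8 and 89.4 CPM in Vehicle and 71.0 and 68.3 under GSK-LSD1, a fall of 20.5% (log2 fold change −0.33, SE 0.058, adjusted p = 0.00312). POLE, the catalytic subunit of the leading strand polymerase, had 216 and 214 CPM against 171.9 and 193.2 (−0.24, adjusted p = 0.0202), with GSK-LSD1 1 lower than GSK-LSD1 2. POLD1, the catalytic subunit of polymerase delta, had 128.6 and 129.3 CPM against 108.8 and 109.5 (−0.24, adjusted p = 0.00702). The sliding clamp PCNA had 206.9 and 209.9 CPM in Vehicle and 222.9 and 209.4 under GSK-LSD1, with overlapping groups (0.05, 95% interval −0.06 to 0.17, adjusted p = 0.530). POLE2 had 10.6 and 10.8 CPM against 11.25 and 11.49 (0.09, adjusted p = 0.628), so its direction was opposite to that of POLE although it did not pass. Among the clamp loader genes RFC2 was at 0.15 (adjusted p = 0.0868), RFC3 at −0.15 (adjusted p = 0.170), RFC4 at −0.02 and RFC5 at 0.02. POLA1, POLA2 and PRIM1, which make the primers, were at −0.12, 0.02 and −0.18, and the flap nuclease FEN1 at 0.04, with none passing.

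In nucleotide supply, TK1 fell and the other 3 genes did not pass. TK1, the salvage thymidine kinase, had 276 and 282 CPM in Vehicle and 233 and 240 under GSK-LSD1 (−0.24, adjusted p = 0.00667). TYMS, which makes thymidylate, had 164.0 and 157 CPM against 150.0 and 138, with no overlap (−0.16, adjusted p = 0.0737). RRM2, the S phase subunit of ribonucleotide reductase, had 117.7 and 126.5 CPM in Vehicle and 123.6 and 118.6 under GSK-LSD1 (−0.01, 95% interval −0.13 to 0.11, adjusted p = 0.907). RRM1 was at 0.01.

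Among the S phase regulators only UHRF1 passed, and among the checkpoint genes only CLSPN. UHRF1, which carries DNA methylation through replication, had 255 and 258 CPM in Vehicle against 223 and 224 (−0.20, adjusted p = 0.0145). CLSPN, the adaptor by which ATR activates CHEK1, had 74.8 and 76.2 CPM in Vehicle and 62.9 and 61.0 under GSK-LSD1, a fall of 17.9% (−0.29, SE 0.058, adjusted p = 0.00713). E2F1 had 153.3 and 150.1 CPM against 134.4 and 148.7, so only GSK-LSD1 1 was well below the controls (−0.10, adjusted p = 0.261). CCNE1, the first cyclin E, had 41.0 and 42.3 CPM in Vehicle against 47.9 and 47.2 (0.19, adjusted p = 0.0637), and CCNE2, the second, had 20.04 and 23.6 against 23.4 and 19.96 (−0.01, adjusted p = 0.965). CHEK1, the checkpoint kinase, had 56.6 and 56.7 CPM in Vehicle and 53.5 and 56.8 under GSK-LSD1 (−0.04, adjusted p = 0.715). ATR, the kinase that senses stalled forks, had 44.4 and 48.4 CPM against 50.3 and 51.9 (0.14, adjusted p = 0.192). E2F2, CDC25A, the phosphatase that activates CDK2, and TOPBP1, an activator of ATR, were at −0.11, 0.06 and −0.10, and none passed.

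Of the 7 epithelial markers 5 were tested, and 3 keratins fell, KRT7 by 0.69, KRT18 by 0.45 and KRT8 by 0.30 on the log2 scale, while MUC1 was at 0.16 and CDH1 at 0.20 and neither passed. The summed level of the 7 genes, nearly all keratin, was 7119 to 7231 TPM in Vehicle and 5317 to 5360 TPM under GSK-LSD1. The 6 fibroblast markers summed to 57.7 to 58.7 TPM in Vehicle and 62.6 to 65.2 TPM under GSK-LSD1, and the 4 leukocyte markers to 11.4 to 14.3 and 18.6 to 20.5 TPM, most of it CD68, with LYZ at 3.75 TPM in GSK-LSD1 1 and CD3E at 0. The 3 endothelial markers summed to 4.88 to 5.02 TPM in Vehicle and 2.63 to 2.79 TPM under GSK-LSD1, mostly CDH5. Their part in the members' changes was not tested.

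The number of falls changed with the libraries in the fit, more than the fold changes did. Leaving out 1 library at a time, 12 members passed lower without Vehicle 1 (7.42% of all genes), 9 without Vehicle 2 (11.3%), 4 without GSK-LSD1 1 (2.59%) and 6 without GSK-LSD1 2 (3.28%). In these fits the remaining pair supplies the spread for the lone library, and the share of all genes that passed lower fell too when a treated library was left out. CDT1, LIG1 and MCM7 passed in all 4 fits, CLSPN, POLE and TK1 in 3, MCM2, POLD1 and UHRF1 in 2, MCM3 and CDC45 in 1 and MCM5 in 0. RFC3, without Vehicle 1, and TYMS, without Vehicle 2, also passed. Neither was among the 12 that fell with all 4 libraries. The log2 fold changes of those 12 stayed below 0 in the 4 fits. Examples were −0.19 to −0.18 for MCM3, −0.21 to −0.20 for UHRF1 and −0.26 to −0.22 for TK1. The widest range relative to its size was that of POLE, from −0.32 to −0.15.

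An edgeR fit of all 8 libraries takes in the wider spread of Vector and EBF2-OE. There 0 members passed, with 6 lower and 0 higher at an unadjusted p under 0.05, 0.109% of all genes passed lower, and CDT1 kept its log2 fold change of −0.70 at an adjusted p of 0.150.

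The members that fell had transcripts richer in G and C. Over the canonical transcripts of GENCODE v44, GC content had a median of 56.4% in the 12 that fell (range 44 to 64.8) and 44.2% in the other 31 (range 34.6 to 61.6), beside 49.6% over the 14522 tested genes with a value. All genes showed a gradient too. With all genes in 5 equal groups by GC content, from the lowest group to the highest, the median log2 fold change of all genes under GSK-LSD1 went from 0.05 to −0.10, and the share of genes that passed lower from 3.34% to 19.6%. In the same 5 groups, members passing lower were 0 of 5, 1 of 14, 2 of 12, 5 of 7 and 4 of 5. Across the 43 members, Pearson's r between GC content and log2 fold change was −0.53 and Spearman's rho −0.44, as a description over genes that share the same libraries. With offsets that remove this gradient in each library, an alternative chosen after the data had been seen, 16 members passed lower against 10.2% of all genes, and none higher. CDT1 was then at −0.62 (adjusted p = 4.24e-06), whereas POLD1 was at −0.03 (adjusted p = 0.744). POLA1, PRIM1, RFC3, TOPBP1 and TYMS passed in addition.

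**Figure D4:**
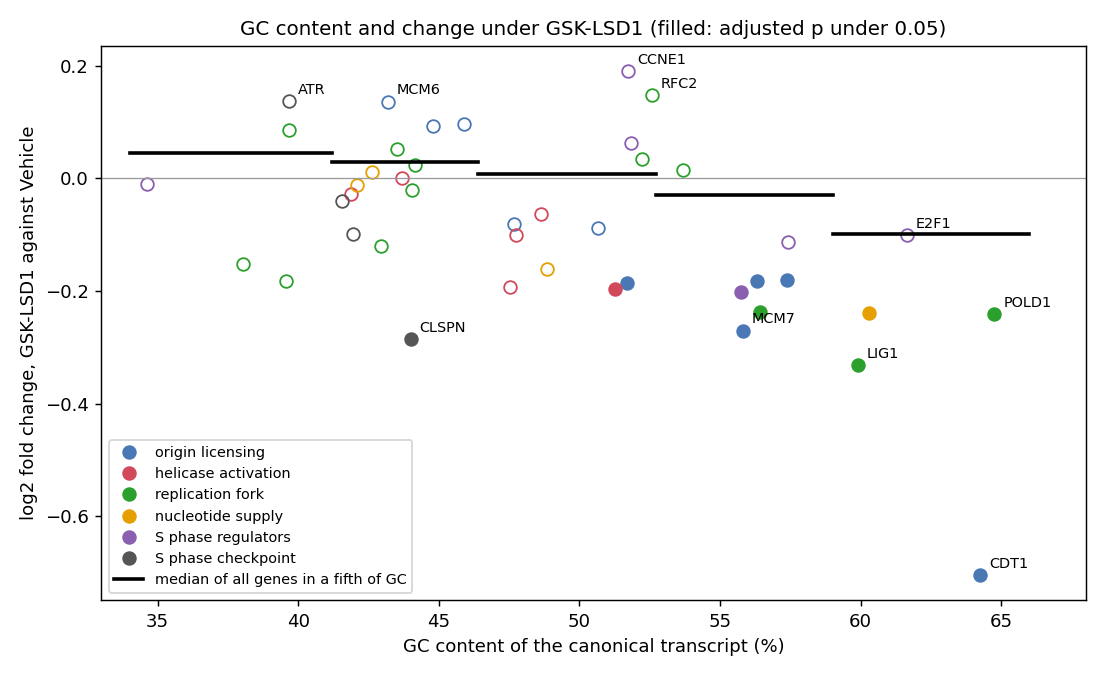
Log2 fold change under GSK-LSD1 against the GC content of the canonical transcript (percent) for the 43 members, filled where the adjusted p was under 0.05, with the median of all genes in each of 5 equal groups by GC content. Falls cluster at high GC content, with a median of 56.4% in the 12 that fell and 44.2% in the other 31.

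EBF2 overexpression left no member past the test, but EBF2 itself did not pass either. The lowest adjusted p of any gene was 0.208 (edgeR quasi-likelihood test). The lack of passing members therefore does not show that they were unchanged. Against Vector, 0 of 43 passed in either direction (edgeR, with 0% of the 15560 genes tested passing higher and 0% lower), 1 was lower and 0 were higher at an unadjusted p under 0.05, and DESeq2 passed 0. The median log2 fold change was −0.11, with 0.003 over all genes, and 38 of 43 members lay below 0 against 49.1% of all genes. Both EBF2-OE libraries were below both Vector libraries in 9 members against 10.8% of all genes, and above both in 0 against 12.1%. These 9 were ORC1, RFC2, POLA2, POLE, POLE2, CCNE2, CDC25A, UHRF1 and CLSPN.

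Much of this lean rested on 1 control library, Vector 3. It lay above the mean of the 4 libraries in 40 of 43 members (93.0%) against 49.7% of all genes, and was the highest library in 32 of 43 against 24.0% of all genes. The median of the members stood at 0.15 on the log2 scale in Vector 3, and between −0.06 and −0.05 in the other 3 libraries. Vector 3 exceeded Vector 2 in 37 of 43 members (86.0%), by a median of 0.20, against 49.8% of all genes. Without Vector 3, 20 of 43 members lay below 0 and their median was 0.01. For comparison, the medians of the members in Vehicle 1, Vehicle 2, GSK-LSD1 1 and GSK-LSD1 2 were 0.02, 0.06, −0.03 and −0.05, and Vehicle 2 exceeded Vehicle 1 in 32 of 43 members by a median of 0.03.

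**Figure D5:**
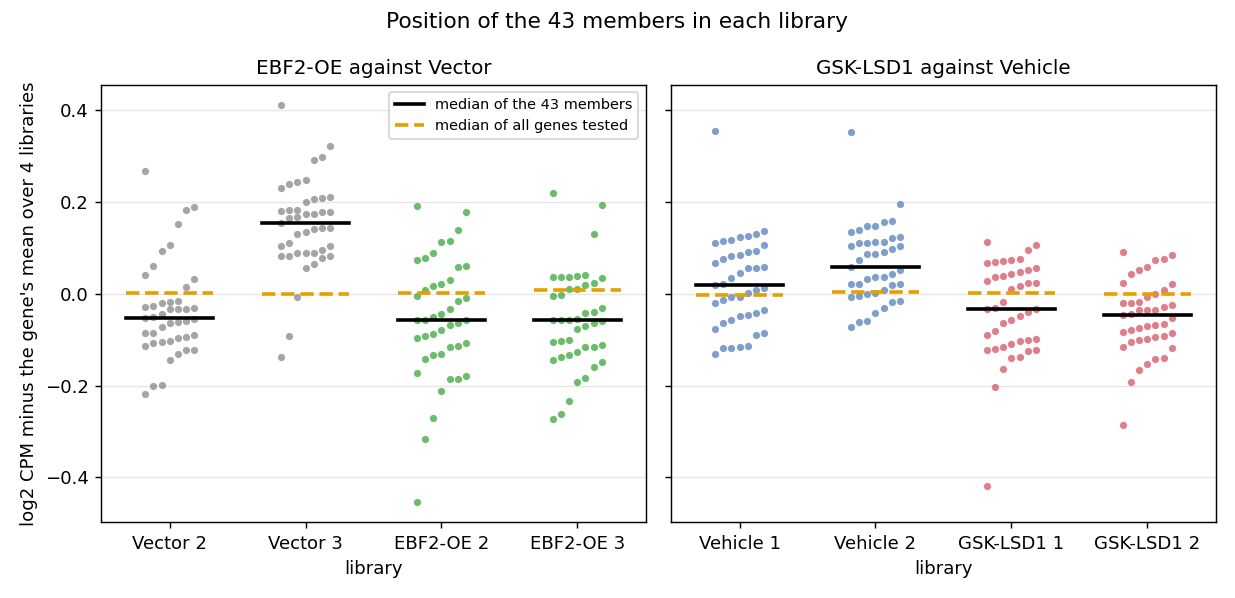
Log2 CPM of the 43 members minus each gene's mean over the 4 libraries of the comparison, per library, with the median marked. Vector 3 sits at a median of 0.15 while Vector 2 and both EBF2-OE libraries sit between −0.06 and −0.05.

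POLE had the largest difference under EBF2-OE, with 206.7 and 205.2 CPM in Vector 2 and 3 and 163.7 and 173.0 in EBF2-OE 2 and 3 (−0.29, SE 0.11, unadjusted p = 0.0433, edgeR quasi-likelihood test). After adjustment over all genes it did not pass. CLSPN had 75.9 and 93.9 CPM in Vector and 71.0 and 68.7 in EBF2-OE (−0.28), and E2F1 had 90.9 and 117.1 against 75.2 and 96.3 (−0.28), where EBF2-OE 3 lay above Vector 2. Both genes were highest in Vector 3. CDT1 had 123.8 and 102.3 CPM in Vector and 75.1 and 117.6 in EBF2-OE, so the EBF2-OE libraries enclosed Vector 3 and the interval was wide (−0.23, 95% interval −0.80 to 0.34). The library with more EBF2, EBF2-OE 3, had the higher CDT1. Of the members, 21 of 43 (48.8%) were higher in EBF2-OE 3 than in EBF2-OE 2, against 51.3% of all genes. A relation of CDT1 to the EBF2 level was not tested.

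The fixed genes of each role overlapped in most cases. MCM2 had 543 and 618 CPM in Vector and 507 and 560 in EBF2-OE (−0.12), and CDC6 had 121 and 149.6 against 124.3 and 124.2 (−0.12). CDC45 had 54.9 and 67.0 CPM against 63.1 and 55.2 (−0.04), and GINS1 had 21.0 and 24.4 against 24.6 and 21.1 (0.01). In both helicase genes the order of the groups turned on which pair of libraries was compared. PCNA had 144 and 194 CPM in Vector and 158 and 170 in EBF2-OE (−0.05), and RRM2 had 123 and 146 against 117 and 132 (−0.11). TYMS had 126 and 145 CPM against 138 and 120 (−0.07), and CHEK1 had 51.8 and 64.5 against 52.3 and 55.7 (−0.11). Vector 3 was the highest library in MCM2, CDC6, CDC45, PCNA, RRM2, TYMS and CHEK1. POLE2 had 10.54 and 9.87 CPM in Vector and 9.07 and 7.89 in EBF2-OE (−0.27), and CCNE2 had 21.0 and 26.4 against 18.5 and 20.7 (−0.27), without overlap in either gene. ATR had 72.9 and 73.1 CPM in Vector and 77.0 and 58.4 in EBF2-OE (−0.11), on both sides of the controls.

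Whether the 2 treatments differed was tested by the difference of their effects in 1 fit of all 8 libraries. No member passed in either direction (edgeR, with 0% of 16558 genes higher and 0% lower), 1 did at an unadjusted p under 0.05, and DESeq2 passed 0 members. That member was RFC2, a clamp loader subunit, whose change was higher under GSK-LSD1 by 0.34 on the log2 scale (SE 0.12, unadjusted p = 0.0198, adjusted p = 0.546). For CDT1 the GSK-LSD1 change was lower than the EBF2-OE change by a log2 difference of −0.46, with a 95% interval from −1.05 to 0.12 (adjusted p = 0.745). The fall of CDT1 under GSK-LSD1 was thus not shown to differ from its change under EBF2-OE.

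The 2 controls were compared to see how far the control cells of the series differed. They share libraries with the treatment comparisons, and the kind of control and the experiment cannot be told apart. CDT1 had 125 and 104.0 CPM in Vector 2 and 3 against 259 and 258 in Vehicle 1 and 2, a log2 fold change of −1.17 (adjusted p = 0.00693). ATR had 73.9 and 74.3 CPM in Vector against 44.1 and 48.1 in Vehicle (0.68, adjusted p = 0.0107). In both genes the groups were far apart. Each pair was close for ATR, but for CDT1 only the Vehicle pair was. Its log2 fold change was −1.31 without Vector 2 and −1.04 without Vector 3. CDT1 and ATR are single genes, since the counts over the members were near or under the background. In all, 7 of 43 members were lower in Vector (CDT1, E2F2, E2F1, POLD1, PRIM1, CCNE1 and RFC4, against 13.2% of the 16019 genes tested) and 2 were higher (ATR and CDC25A, against 13.6%). Past the fold limit, CDT1 was lower, against 10.2% of all genes, and ATR higher, against 5.79%. Without Vehicle 1, CDT1 had an adjusted p of 0.0635 and ATR of 0.130, and without Vehicle 2, CDT1 had 0.0378 and ATR 0.0836. These edgeR fits take the lone Vehicle library to vary like the Vector libraries. GC content moved with this contrast too. With the offsets that remove it, ATR was at 0.51 and CDT1 at −0.84 and both passed, as did PRIM1, CCNE1, RFC4 and CDC25A. E2F1 was then at −0.30 (adjusted p = 0.209), E2F2 at −0.52 (adjusted p = 0.0506) and POLD1, turned in direction, at 0.22 (adjusted p = 0.120), and none of these 3 passed. Markers of other cell types differed between the controls as well. Those that passed had log2 fold changes of −3.09 for CDH5 and −2.38 for VWF (endothelium), −1.57 for PDGFRB and −0.81 for COL3A1 (fibroblast), −0.99 for KRT18 and −0.49 for KRT8 (epithelium) and 0.96 for CD68 (leukocyte). The summed TPM of the endothelial list was 0.717 to 0.798 in Vector and 4.88 to 5.02 in Vehicle, of the fibroblast list 51.5 to 56.4 and 57.7 to 58.7, of the leukocyte list 22.1 to 26.9 and 11.4 to 14.3, and of the epithelial list 4622 to 4952 and 7119 to 7231. Their part in the members' values was not tested.

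Related genes on lists beside the 43 were read against the same background under GSK-LSD1, 8.87% of all genes lower and 9.86% higher. The median SE of these lists, from 0.052 to 0.072, was also below the 0.097 of all genes. Of 49 other replication genes, 10 fell and 0 rose in edgeR (1 higher at an unadjusted p under 0.05, 0 by DESeq2), none past the fold limit: TICRR, DONSON, RECQL4, TIMELESS, POLD4, SSRP1, CHTF18, DSCC1, CHAF1A and ASF1B. Of 15 further genes of nucleotide supply, 2 fell and 3 rose. RRM2B, the p53-induced form of the small reductase subunit, had 24.6 and 25.3 CPM in Vehicle and 36.7 and 40.3 under GSK-LSD1 (0.63, adjusted p = 0.000443). DUT, which clears dUTP, had 146.3 and 83.2 CPM in Vehicle and 66.9 and 64.5 under GSK-LSD1 (−0.80, adjusted p = 0.0145), so its Vehicle libraries stood far apart. RRM2B thus rose while RRM2 and RRM1 did not pass.

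In the RB and E2F axis, 7 of 33 genes fell and 1 rose under GSK-LSD1. CDKN1A, the p21 inhibitor of cyclin-dependent kinases, had 158.4 and 157.0 CPM in Vehicle and 269.8 and 268.7 under GSK-LSD1 (0.77, adjusted p = 4.94e-06). CDKN2A, which encodes p16 and p14ARF, had 425 and 278 CPM against 174.1 and 165.0 (−1.05, adjusted p = 0.000762). These inhibitors moved in opposite directions. Cyclin D1, CCND1, had 102.9 and 102.9 CPM against 102.8 and 110.8 (0.05, adjusted p = 0.561). Of 23 further checkpoint and fork response genes 5 fell and 0 rose in edgeR (1 higher at an unadjusted p under 0.05, 0 by DESeq2), beside the same 8.87% and 9.86%. Of 20 mitotic markers 7 fell and 0 rose (0 higher at an unadjusted p under 0.05, 0 by DESeq2). In the fit of all 8 libraries none of the genes that fell on these 5 lists passed, where 0.109% of all genes passed lower, and 1 gene of nucleotide supply passed higher. The proliferation marker MKI67 had 406 and 412 CPM in Vehicle and 340.4 and 363.4 under GSK-LSD1 (−0.22, adjusted p = 0.0122). Under EBF2-OE 0 genes of these 5 lists passed in edgeR or DESeq2, and 0 had an unadjusted p under 0.05. CDKN1A had 365.0 and 231.5 CPM in Vector against 291.2 and 411.9 in EBF2-OE (0.24), with MKI67 at 371 and 462 against 437 and 370 (−0.05), and CCND1 at 117 and 81.2 against 109 and 87.5 (−0.01). In Vector 3, where most members were highest, CDKN1A and CCND1 were at their lowest of these 4 libraries and MKI67 at its highest. The mitotic markers were mixed. CENPF and FOXM1 were also highest in Vector 3, whereas TOP2A, CCNB1 and BUB1 were highest in EBF2-OE 2, and UBE2C was lowest in Vector 3. The part of a library's proliferative state in the members' values was not tested.

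Some counts may hold reads of neighbours or lack reads on shared bases. The sources used here do not state how counting treated strand or bases shared by 2 genes. In GENCODE v44, 19 of the 43 members share exon bases with a gene on the opposite strand and 7 with a gene on the same strand. On the opposite strand, the share of the member's exon bases was 39.9% for TYMS with ENOSF1 and 37.1% for CCNE2 with INTS8. It was 23.6% for MCM2 and 21.0% for GINS4, both with long noncoding RNAs. On the same strand, the largest share was 16.8%, for POLA2. How many reads these bases took was not examined, so the values of these genes are uncertain. For CDT1 no shared exon was found.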

How the data were processed

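Poly(A) RNA of 8 SW1990 libraries, 2 per group, was sequenced in pairs. The authors used HISAT2 with its defaults for alignment (hg38) and HTSeq for counting. The deposited raw counts per gene were used for every test, and the deposited TPM, checked to be the count over the listed length rescaled, for levels between genes, level ranges across libraries and summed markers. Depth was 20453362 to 27054876 counts per library, which with 2 libraries a group limits precision.

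Groups were taken from the labels. Counts were tested with edgeR 4.0.16 (R 4.3.3): filterByExpr with a minimum count of 10, TMM, the quasi-likelihood test on the 4 libraries compared, two-sided p-values adjusted by Benjamini-Hochberg over all genes tested. A gene passed at an adjusted p under 0.05, and the fold limit was 1.5. The script was tested on simulated data. Alternatives were DESeq2 1.42.0, limma 3.58.1 on log2 CPM with a pseudocount of 1, other scalings and filters, a replicate block, leaving out each library, and, chosen after seeing the data, GC offsets in 20 bins.

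Values in every library are given for members past the fold limit, the 3 members with the largest change per treatment, and fixed members of each role (MCM2, CDC6, CDC45, GINS1, PCNA, POLE2, RRM2, TYMS, E2F1, CCNE2, CHEK1, ATR). Others with values per library were chosen after their values were seen. From the other lists, genes past the fold limit and CDKN1A, CCND1 and MKI67 are given. The members, lists and rules were chosen with earlier results of these data known. Replicates of a group differed by more than sampling noise in all 4 groups.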

Additional observations from a re-analysis of the deposited data

How the results depend on the processing

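The fall of CDT1 under GSK-LSD1 passed the fold limit under every alternative except the fit of all 8 libraries, in which 0 members passed and 0 passed the fold limit. Members passing lower under GSK-LSD1 numbered 4 to 12 when each library was left out. With all 4 libraries and unadjusted p-values, 3 members were higher under GSK-LSD1 and 1 lower under EBF2-OE. Under EBF2-OE, on leaving out each library 20 to 41 members lay below 0 with a median from −0.206 to 0.0119. The difference of the treatments had 1 member higher at unadjusted p. For Vector against Vehicle, leaving out each library gave 0 to 10 members passing higher, 0 to 21 lower (0.0601% to 24.1% of all genes lower), 0 to 2 and 0 to 3 past the fold limit higher and lower, and a median from −0.17 to −0.00144. There DESeq2 passed 1 higher, 13 were lower at unadjusted p, and the GC offsets left 0 higher and 2 lower past the fold limit. The cause of these changes was not tested.

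No label says that a replicate number marks a shared culture or day. Deviations of same-numbered libraries correlated at 0.35 (EBF2-OE and Vector, 15560 genes) and −0.01 (GSK-LSD1 and Vehicle, 16059 genes), with 2 pairs each. Over the members alone the correlations were −0.01 (EBF2-OE and Vector) and −0.43 (GSK-LSD1 and Vehicle). With the replicate block, 10 members passed lower under GSK-LSD1 in place of 12, without CDC45 and MCM5, and 0 under EBF2-OE. No paired fit was made for Vector against Vehicle or for the difference of the treatments.

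Directions turned for small log2 values. Under EBF2-OE, GINS1 was −0.00182 without the filter, and MCM3 was −0.00163 with DESeq2 size factors, −0.00166 with DESeq2, −0.00836 without the filter, −0.00516 in the fit of all 8 and −0.00939 with GC offsets. In Vector against Vehicle, GC offsets gave −0.0816 for CCNE2, −0.0608 for CHEK1 and 0.22 for POLD1, which had passed lower. Leaving out each library, EBF2-OE values ran from −0.59 to 0.0512 for CDT1, −0.33 to 0.0778 for ATR, −0.26 to 0.0395 for CDC6, −0.17 to 0.11 for CDC45, −0.11 to 0.13 for GINS1, −0.24 to 0.19 for PCNA, −0.22 to 0.0239 for RRM2, −0.18 to 0.0298 for TYMS, −0.25 to 0.0591 for CHEK1, −0.20 to 0.0965 for LIG1, −0.30 to 0.18 for POLD1, −0.0561 to 0.14 for TK1 and −0.18 to 0.23 for MCM3. GSK-LSD1 values ran from −0.0843 to 0.0334 for GINS1, −0.0606 to 0.0394 for RRM2, −0.13 to 0.11 for CCNE2 and −0.0807 to 0.00657 for CHEK1. Vector against Vehicle ran from −0.27 to 0.0251 for CDC45, −0.13 to 0.0905 for GINS1, −0.0801 to 0.00979 for POLE2, −0.0248 to 0.31 for CCNE2 and −0.0955 to 0.22 for CHEK1.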
